A study of Mus musculus with 52 samples.

Results

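The genes described here were 10 members of the regulator of G-protein signaling (RGS) family, Rgs2, Rgs3, Rgs9, Rgs10, Rgs12, Rgs14, Rgs16, Rgs17, Rgs19 and Rgs20, taken by symbol from a table of 24421 gene symbols. They are not the whole family, and other members with counts, such as Rgs11, were treated as further pathway genes. They were followed in Cilia-APEX-IMCD3 cells, a mouse inner medullary collecting duct line that forms primary cilia and carries a peroxidase tag in the cilium. RNA was sequenced from 13 groups, each a single-cell clone in 1 state and called a clone here, with 4 technical replicate libraries each, 52 libraries in all. The study asked how missense changes in WDR34 or WDR60, the intermediate chains of the dynein-2 motor that carries cargo back from the ciliary tip, alter transcription in ciliated and in non-ciliated cells. Ciliated cells comprised 3 mutant clones (C-Wdr34-1, C-Wdr34-3 and C-Wdr60) and 4 control clones (C-conD8, C-conH12, C-conA4 and C-conG7), and non-ciliated cells comprised 2 mutant clones (NC-Wdr34 and NC-Wdr60) and 4 control clones (NC-conAB, NC-con1, NC-con2 and NC-con3). All mutants were labelled homozygous and were made by cytosine base editing, and the study describes its controls as cells given the editor and an empty guide vector. The titles of NC-conAB lack the BE prefix of the other non-ciliated groups, and its origin is not stated further. The labels give no allele for any clone and list growth in 10% FBS for every library, whereas low-serum medium was the study's stated way to induce cilia, and the state used here is that of the labels. The labels do not say which clones recur in both states. C-Wdr60 and NC-Wdr60 share a name and may be the same clone. The study describes 4 control and 3 mutant clones, fewer than the control and the mutant groups here. The 13 groups are therefore not 13 independent clones, and control clones may also recur in both states. Each mutant line is 1 clone, so that an edited allele and other differences of its clone cannot be told apart within a line.

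RGS proteins bind the active, GTP-loaded alpha subunit of a heterotrimeric G protein and speed the hydrolysis of its GTP, which shortens the signal of a G-protein-coupled receptor. Rgs2, Rgs3 and Rgs16 encode proteins built around little more than the RGS domain or, for Rgs3, also longer forms. Rgs9 encodes a larger protein that works with the G beta 5 subunit and is best known from photoreceptors and striatal neurons. Rgs10, Rgs12 and Rgs14 act mainly on the Gi class, and Rgs12 and Rgs14 are multidomain scaffolds, whereas Rgs17, Rgs19 and Rgs20 form the RZ subfamily with a cysteine-rich amino terminus. Vasopressin, prostaglandin, purine and adenosine receptors that signal through G proteins govern water and salt handling in the collecting duct.

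Library totals were 14816218 to 28084979 counts, and levels are given as counts-per-million (CPM), of which 1 was 14.8 to 28.1 counts. The 17 kidney epithelium and collecting duct markers summed to 1267 to 5451 CPM over the 13 clones, with Pax8 and Cdh16 at no less than 149 and 154 CPM in any clone. The epithelial adhesion genes Cdh1 (4.27 to 649 CPM) and Epcam (2.89 to 836 CPM) varied widely between clones, while Foxi1 had no count and the principal cell water channel Aqp2 had 1 count in all. Endothelial markers summed to at most 0.185 CPM per clone. Fibroblast markers summed to 1.4 to 7.29 CPM in 12 clones and to 31.3 CPM in C-Wdr34-3, through Dcn (decorin). Proximal tubule markers summed to 4.59 to 455 CPM, nearly all of it Lrp2, with Slc34a1 at 0, and the leukocyte list, through Csf1r, reached 171 to 303 CPM in ciliated and 18.4 to 54.2 CPM in non-ciliated clones, with Ptprc at or below 0.895 CPM and Lyz2 at or below 0.0151 CPM. Wdr34 RNA stood at 21.6 CPM in C-Wdr34-3 against 31.5 to 49.7 CPM in the other 6 ciliated clones, and at 21.9 to 32.1 CPM in the non-ciliated clones. Wdr60 RNA stood at 20.2 to 30.6 CPM over all clones. Editing of single nucleotides need not change these levels, which check no label.

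Among the members, Rgs12, Rgs19 and Rgs3 held most of the RNA. Divided by the length of their merged exons, to allow a comparison between genes, Rgs12 (6590 bases), Rgs19 (2137 bases) and Rgs3 (7831 bases) together held 70.8% (NC-Wdr34) to 93.9% (C-conA4) of the summed level of the 10 genes in a clone. The mean over the 13 clones was 12.9 ± 3.77 CPM per kilobase for Rgs12, 12.6 ± 6.86 for Rgs19 and 2.56 ± 1.15 for Rgs3 (SD, n = 13 clones). Rgs16 followed with 2.1 ± 3.11 and Rgs10 with 1.63 ± 0.819 CPM per kilobase, and Rgs20, Rgs2 and Rgs9 lay at 0.723 ± 0.622, 0.267 ± 0.253 and 0.251 ± 0.527. Rgs14 and Rgs17 were at the edge of detection in every group, at 0.015 ± 0.0132 and 0.00289 ± 0.00846 CPM per kilobase. The SD exceeded the mean for Rgs16, which was high in both non-ciliated mutants, and for Rgs9 and Rgs17, which were high in C-Wdr34-3.

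**Figure D1:**
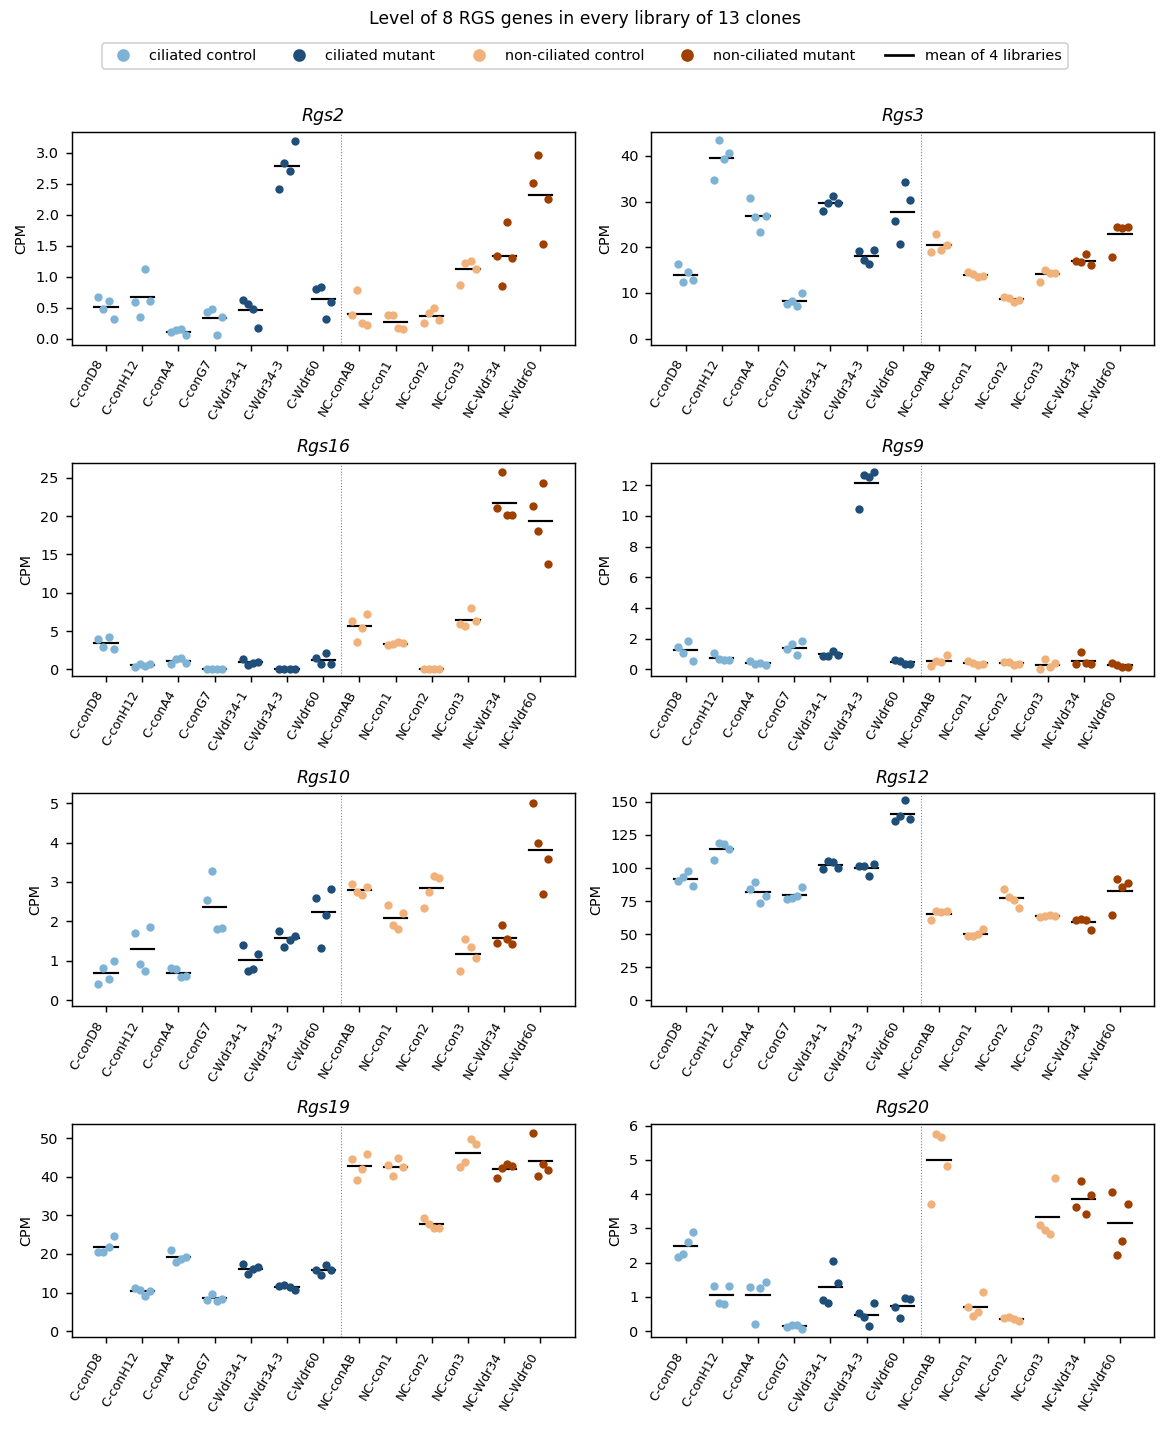
CPM (vertical axis, linear) of the 8 RGS genes that passed the filter on low counts, in each of the 4 libraries (points) of the 13 clones (horizontal axis), with the clone mean as a bar. Rgs16 is highest in the non-ciliated mutants, Rgs9 in C-Wdr34-3, and Rgs19 is lower in every ciliated than in every non-ciliated clone.

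The promoters of Rgs2 and Rgs16, the members called higher in the non-ciliated mutants, are shown here as the stretch before the annotated start site, since both genes were called in the same comparison. Both sequences are from RefSeq on GRCm38.p6, the build of the counts (mm10), and hold the 250 bases before the start site on the gene's own strand, 5′ to 3′. Rgs2 is on the minus strand at chr1:144004150-144004399 and Rgs16 on the plus strand at chr1:153740103-153740352. Capitals mark matches to a GC box (GGGCGG or its reverse complement CCGCCC).

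Rgs2: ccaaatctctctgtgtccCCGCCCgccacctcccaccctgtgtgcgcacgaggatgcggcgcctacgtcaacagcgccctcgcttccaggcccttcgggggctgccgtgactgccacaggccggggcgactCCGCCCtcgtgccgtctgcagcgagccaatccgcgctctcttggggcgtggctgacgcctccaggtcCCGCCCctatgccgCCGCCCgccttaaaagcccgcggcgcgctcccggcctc
Rgs16: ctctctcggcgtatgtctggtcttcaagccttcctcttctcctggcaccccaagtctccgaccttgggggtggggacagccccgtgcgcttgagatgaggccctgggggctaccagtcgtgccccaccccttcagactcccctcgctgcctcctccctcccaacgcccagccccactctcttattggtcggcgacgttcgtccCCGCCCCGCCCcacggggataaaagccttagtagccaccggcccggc

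The Rgs2 stretch held 4 GC boxes, which began 232, 119, 52 and 38 bases before the start site, and the Rgs16 stretch held 2 overlapping ones, at 47 and 42 bases. A GC box was present in 32.7% of the 32851 mouse promoter windows of the same length, so its presence in both is a description of common letters. Neither stretch held a CRE (TGACGTCA, in 1.55% of windows), an AP-1 element (TGANTCA, 6.75%), a TATA box (TATAAA, 12.4%) or an E-box (CACGTG, 6.02%), each searched on both strands. Of the 8 members with a promoter entry, Rgs3 and Rgs9 held a TATAAA match and Rgs12 and Rgs17 an AP-1 match in at least 1 of their windows.

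In non-ciliated cells, Rgs16 and Rgs2 were higher in the Wdr34 and Wdr60 mutants than in the controls, and no member was called lower. In bulk RNA, fewer cells that express a gene and less of its RNA per cell cannot be told apart. With the library as the sample, 7 members passed the filter on low counts and 2 of them were called, with an adjusted p under 0.05 and a change of 1 or more on the log2 scale, beside 3.06% of the 12012 genes tested and 0.491% in this direction. The median log2 fold change was 0.48 over the 7 members and 0.00 over all genes tested, and all 7 values were above 0.

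Rgs16, whose product acts on Gi and Gq alpha subunits, stood at 21.1, 25.7, 20.2 and 20.1 CPM in the libraries of NC-Wdr34 and at 21.4, 18, 24.4 and 13.8 CPM in those of NC-Wdr60. In the controls it was 6.35, 3.63, 5.38 and 7.27 CPM in NC-conAB, 3.12, 3.29, 3.52 and 3.44 CPM in NC-con1, 5.92, 5.62, 7.96 and 6.34 CPM in NC-con3, and 0 to 0.1 CPM in NC-con2, where the 4 libraries held 4 counts. No mutant library overlapped a control library, and NC-con2 stood far below the other controls. NC-con2 also had the lowest epithelial marker sum, 1267 CPM against 3541 to 4553 CPM in the other 5 non-ciliated clones, and the highest proximal tubule sum, 275 CPM against 4.59 to 95.2 CPM. Both mutants had lower proximal tubule sums than every control, 4.59 and 8.11 CPM against 11.6 to 275 CPM. Their fibroblast sums were also lower, 3.07 and 3.82 CPM against 4.87 to 7.29 CPM, while the other marker lists overlapped between genotypes. The part of these differences in the Rgs16 and Rgs2 results was not tested. The log2 fold change of Rgs16 was 2.40 (SE 0.53, edgeR quasi-likelihood test, adjusted p = 0.0037), and it was 1.98 without NC-con2 (adjusted p = 2.0e-07). With the 4 libraries of each clone summed, and so 2 mutant against 4 control clones, the adjusted p was 0.98, and voomLmFit, blocking on the clone, gave 0.056. Both mutant clone means lay above all 4 control means, and the exact 2-sided permutation test over clones gave p = 0.2, where 0.0667 is the smallest p that 15 splits allow.

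Rgs2, whose product prefers Gq alpha subunits and restrains signals such as those of vasoconstrictor receptors, was 1.33, 0.843, 1.88 and 1.31 CPM in NC-Wdr34 and 2.51, 2.96, 1.53 and 2.26 CPM in NC-Wdr60. The controls had 0.377, 0.778, 0.247 and 0.212 CPM in NC-conAB, 0.382, 0.38, 0.17 and 0.154 CPM in NC-con1, 0.246, 0.408, 0.501 and 0.297 CPM in NC-con2 and 0.862, 1.22, 1.24 and 1.13 CPM in NC-con3. The libraries of NC-con3 overlapped those of NC-Wdr34, and the other 3 controls lay below every mutant library. The log2 fold change was 1.74 (SE 0.34, edgeR adjusted p = 0.0016), 2.37 without NC-con3 and 1.30 without NC-Wdr60, where the call was lost (adjusted p = 0.067). The adjusted p was 0.98 with clones summed and 0.48 in voomLmFit, and the exact permutation over clones gave p = 0.0667, the smallest it can give. In all, 2 of 7 members had both mutant clone means wholly apart from the control means, beside 12.9% of all genes tested and 6.93% with the mutants above.

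Taken clone by clone against the same 4 controls, Rgs16 was higher in NC-Wdr34 by 2.48 (SE 0.70, edgeR adjusted p = 0.026) and in NC-Wdr60 by 2.32 (SE 0.71, adjusted p = 0.036) on the log2 scale. Rgs2 was higher in NC-Wdr60 by 2.08 (SE 0.43, adjusted p = 0.0032), and in NC-Wdr34 its value was 1.30 (SE 0.45, adjusted p = 0.067). The share of all genes called was 2.24% in NC-Wdr34 and 3.41% in NC-Wdr60. Rgs3 had 0.68 in NC-Wdr60 (SE 0.22, edgeR adjusted p = 0.0497), under the limit on size, and 0.26 in NC-Wdr34 (SE 0.22, adjusted p = 0.47). The Rgs16 call was lost in both clones without NC-con1, with the replicate block and in each fit without a replicate number, and in NC-Wdr60 also with DESeq2 (adjusted p = 0.062), so that it held in 6 of 12 alternatives for NC-Wdr34 and 5 of 12 for NC-Wdr60, with adjusted p up to 0.15 and 0.16. The test of NC-Wdr34 and that of NC-Wdr60 share their control libraries.

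In ciliated cells, Rgs2 and Rgs9 passed the thresholds and both calls rested on C-Wdr34-3. Of 8 members tested, 2 were called, both higher in the 3 mutants, beside 0.644% of the 11950 genes tested and 0.418% in this direction. The edgeR adjusted p was 0.033 for Rgs2 and 0.022 for Rgs9, and with clones summed or in voomLmFit it was 1.0 for both. Rgs9 was 10.5, 12.7, 12.6 and 12.8 CPM in the libraries of C-Wdr34-3, 0.878 to 1.2 CPM in those of C-Wdr34-1 and 0.318 to 0.633 CPM in those of C-Wdr60. The control libraries held 0.567 to 1.87 CPM in C-conD8, 0.603 to 1.06 CPM in C-conH12, 0.285 to 0.541 CPM in C-conA4 and 0.929 to 1.82 CPM in C-conG7. C-Wdr34-3 thus stood alone, and the other mutant clones lay within the control range. Both calls were also lost without C-conD8, without C-conA4 and in each of the 4 fits without a replicate number, and that of Rgs2 with the replicate block (adjusted p = 0.056), so that Rgs2 was called in 6 of 16 and Rgs9 in 8 of 17 alternatives. Without C-Wdr34-3 no member was called and the log2 fold change of Rgs9 was -0.42. Rgs2 libraries held 2.41, 2.84, 2.71 and 3.18 CPM in C-Wdr34-3 and at most 0.833 CPM in the other ciliated mutants, against 0.057 to 1.13 CPM in the 16 control libraries. Without C-Wdr34-3 its log2 fold change was 0.39, against 1.64 with all clones. Over clones, the exact permutation test gave p = 0.2 for Rgs2 and p = 0.543 for Rgs9, where 0.0286 is the smallest p that 35 splits allow, and 0 of 8 members had mutant clone means wholly apart from the control means, beside 2.01% of all genes tested.

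C-Wdr34-3 alone against the 4 ciliated controls had 3 of 8 members past the thresholds, where 5.8% of 12553 genes were called. Rgs9 was higher by 3.65 (SE 0.34, edgeR adjusted p = 1.4e-07) and Rgs2 by 2.73 (SE 0.44, adjusted p = 0.00014) on the log2 scale. Rgs16 had 1 count in the 4 libraries of C-Wdr34-3 and 336 counts in the 16 control libraries, 221 of them in C-conD8, 75 in C-conA4 and 40 in C-conH12. Its level per count sequenced was 84.8 times as high in the controls (95% exact interval 15.1 to 3360, counting error only), a ratio that rests mostly on C-conD8. The edgeR adjusted p was 0.023. This call was lost in each of the 4 fits without a replicate number (adjusted p 0.073 to 0.091). The control clones themselves differed at this gene, since C-conG7 had no count and stood as low as C-Wdr34-3. These were also the ciliated clones with the lowest epithelial marker sums, 2125 CPM in C-conG7 and 2311 CPM in C-Wdr34-3 against 3899 to 5451 CPM in the other 5, and the highest proximal tubule sums, 455 and 62.2 CPM against 14 to 26.9 CPM, and the part of these differences in the result was not tested. Rgs17, an RZ member of the nervous system, had 4, 7, 2 and 6 counts in the libraries of C-Wdr34-3 (0.253 CPM), at most 1 count in any other library of the series and none in the 16 ciliated control libraries. Against the limit that a count of 0 sets for each control clone (3 counts over its 4 libraries) it was at least 5.47-fold higher, but it failed the filter on low counts and was not tested. Of the 6 fibroblast markers, Dcn was high in this clone (29.1 CPM), while the other 5 summed to 2.2 CPM, within the 0.395 to 2.41 CPM of the other ciliated clones.

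C-Wdr34-1 and C-Wdr60 had no member past both thresholds, beside 0.679% and 1.93% of genes called. In C-Wdr34-1 the 8 values ran from -0.46 to 0.39 on the log2 scale and the smallest adjusted p was 0.61. In C-Wdr60, Rgs12 was higher by 0.61 (SE 0.12, edgeR adjusted p = 0.0037), under the limit on size. Its libraries held 135, 139, 151 and 137 CPM in C-Wdr60 against 73.4 to 119 CPM in the 16 control libraries, and the groups did not overlap. Over all 3 ciliated mutants the value for Rgs12 was 0.31 (SE 0.09, adjusted p = 0.058).

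**Figure D2:**
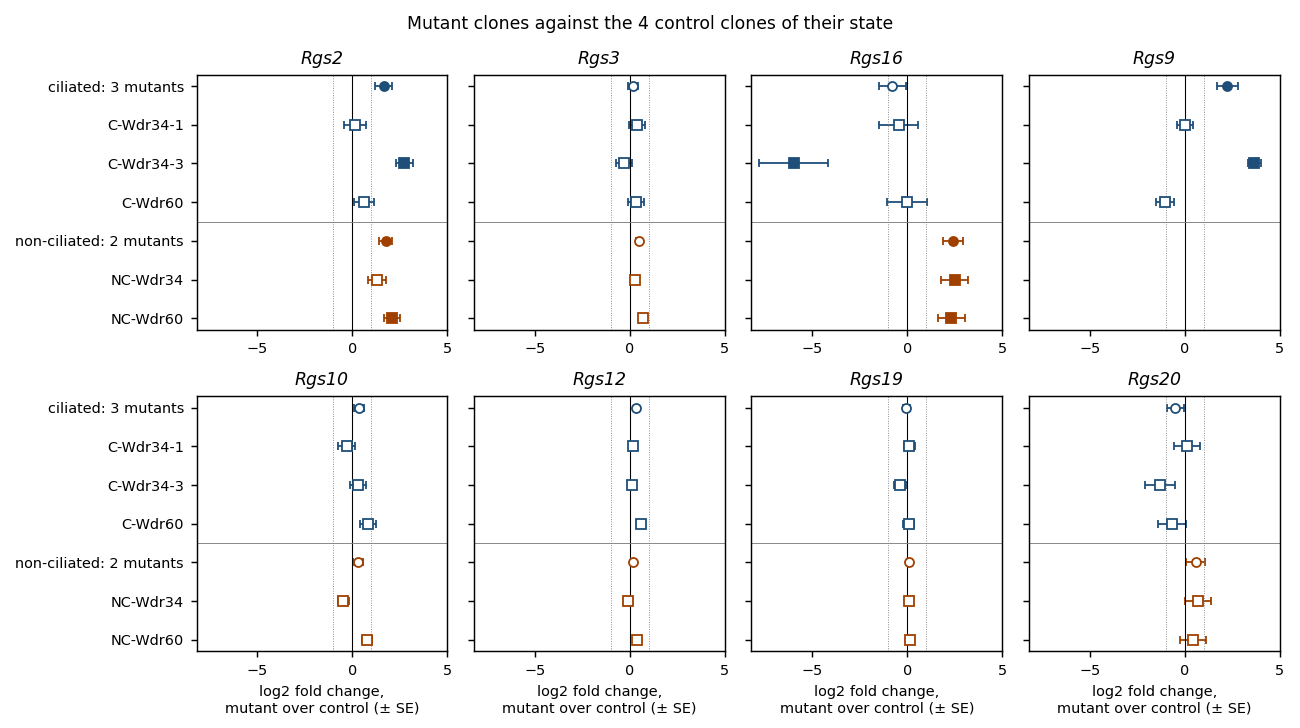
Log2 fold change of 8 RGS genes with its standard error (horizontal axis) for all mutants of a state together (circles) and each mutant clone (squares) against the 4 control clones of that state. Filled symbols passed both thresholds, dotted lines mark 1 and -1, Rgs9 was not tested in non-ciliated cells, and the Rgs16 value of -5.97 in C-Wdr34-3 rests on 1 count. Rgs16 is right of the line in both non-ciliated mutants, and Rgs9 in C-Wdr34-3 alone.

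The difference of the mutant effect between the states was tested as an interaction over all 52 libraries, without a term for clones that may recur in both states. None of the 8 members tested was called, beside 1.19% of the 12544 genes tested. For Rgs16 the ciliated effect minus the non-ciliated effect was -3.18 (SE 0.94, edgeR adjusted p = 0.065, DESeq2 adjusted p = 0.064). For Rgs9 it was 2.27 (SE 0.77, edgeR adjusted p = 0.12, DESeq2 adjusted p = 0.056). Rgs9 failed the filter on low counts in the non-ciliated comparison and passed it here with the ciliated libraries included. Its ciliated value rests on C-Wdr34-3, without which it was -0.42. With clones summed, the edgeR adjusted p was 0.99994 for both genes, and voomLmFit gave 0.99996. For Rgs2, whose values were 1.64 in ciliated and 1.74 in non-ciliated cells, the difference was -0.09 (SE 0.62, adjusted p = 0.97). The ciliated value rests on C-Wdr34-3, without which it was 0.39, and the difference without that clone was not fitted. DESeq2 called 0 members in this comparison.

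Most members also differed between the control clones of a state. With the libraries as technical replicates of a clone, 7 of 8 members differed among the 4 ciliated controls (edgeR, adjusted p under 0.05 and at least 1 on the log2 scale between the highest and the lowest clone), beside 32.9% of 12325 genes, and 5 of 7 among the 4 non-ciliated controls, beside 25.6% of 12327 genes. Rgs16 had the widest range. In ciliated controls it was highest in C-conD8 (3.92, 2.9, 4.28 and 2.71 CPM), at 0.265 to 1.53 CPM in C-conH12 and C-conA4, and without a count in C-conG7, so that it was at least 88.4-fold higher in C-conD8 than the 3 counts per clone that a count of 0 allows. In non-ciliated controls the range was 6.72 on the log2 scale. Rgs20 came next, with ranges of 4.20 and 3.79, then Rgs2 with 2.48 and 2.07 and Rgs3 with 2.26 and 1.26. Rgs12 had the narrowest range in both states, 0.54 and 0.62, and its differences passed the adjusted p (4.8e-06 and 8.8e-07) but not the limit on size.

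Set beside these ranges, the mutant effect was smaller for 14 of the 15 combinations of a member and a state. The exception was Rgs9 in ciliated cells, at 2.24 against a range of 1.83, but without C-Wdr34-3 the effect was -0.42 and smaller in size than that range. The effect exceeded the range among the controls for 2.41% of all genes in the ciliated comparison and 6.31% in the non-ciliated one. The median range was 2.05 over the 8 members and 0.69 over all genes in ciliated cells, and 1.26 over the 7 members and 0.59 over all genes in non-ciliated cells.

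**Figure D3:**
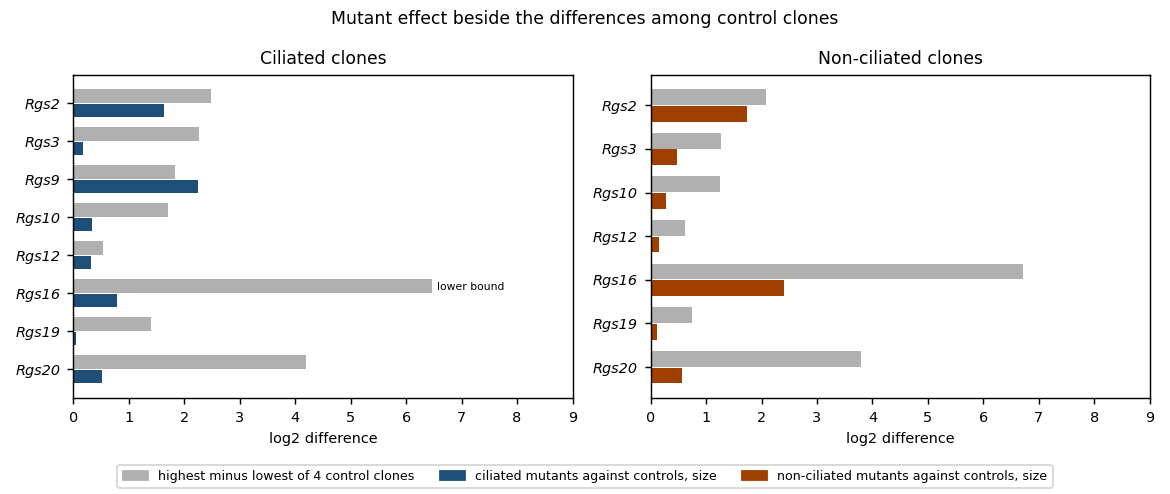
Size of the log2 fold change of the mutants against the controls (coloured bars) and the log2 difference between the highest and the lowest of the 4 control clones (grey bars) for each member tested in a state. The grey bar of Rgs16 in ciliated clones is a lower bound because C-conG7 had no count, and Rgs9 in ciliated clones is the 1 gene whose coloured bar is the longer, which rests on C-Wdr34-3 (the effect without it was -0.42).

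Between the states, Rgs19, an RZ member that acts on Gi alpha subunits and was first found as a partner of Gi alpha 3, was lower in ciliated than in non-ciliated control clones. Its libraries held 20.6, 20.5, 21.7 and 24.7 CPM in C-conD8, 11.1, 10.7, 9.14 and 10.4 CPM in C-conH12, 21, 18, 18.6 and 19.1 CPM in C-conA4 and 8.07, 9.62, 7.74 and 8.41 CPM in C-conG7. Non-ciliated controls had 44.5, 39.2, 41.9 and 45.9 CPM in NC-conAB, 43, 40.3, 44.8 and 42.5 CPM in NC-con1, 29.4, 27.9, 26.9 and 26.6 CPM in NC-con2 and 42.6, 43.9, 49.9 and 48.5 CPM in NC-con3. The highest ciliated library was below the lowest non-ciliated one. With each clone summed to 1 sample, the log2 fold change was -1.43 (SE 0.34, edgeR adjusted p = 0.03), and Rgs19 was the 1 member called of 8 tested, beside 5.03% of 13119 genes and 2.24% in this direction. The call was lost without NC-conAB, NC-con1, NC-con3, C-conH12 or C-conA4, with values from -1.57 to -1.29 and adjusted p from 0.056 to 0.095. The mutants, which this test did not use, lay on the same sides, with 39.7 to 51.5 CPM in the 8 non-ciliated and 10.6 to 17.3 CPM in the 12 ciliated mutant libraries.

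Rgs12 pointed the other way, with control clone means of 79.4 to 114 CPM in ciliated and 50.2 to 77.1 CPM in non-ciliated cells, and a value of 0.50 on the log2 scale (SE 0.17, edgeR adjusted p = 0.078, DESeq2 adjusted p = 0.029). For Rgs12 and Rgs19, 2 of 8 members, the control clone means of the states lay wholly apart, beside 22.1% of all genes tested, and the exact permutation test gave p = 0.0286 for each, the smallest that 70 splits allow, with an adjusted p of 0.13. Rgs9 had a value of 1.18 (SE 0.46, edgeR adjusted p = 0.12) with overlapping clone means, and the other 5 members had values from -1.64 (Rgs16) to 0.62 (Rgs3). The control clones of the states carry different names in the labels, but the study describes 4 control clones, so some may have been sampled in both states. The tests between states treated the 4 control groups of each state as separate clones. The study obtained a Wdr34 mutant only after the RNA of the non-ciliated cells was sequenced, so the time of sequencing also differed between states. The state, the serum level that induces it, the time of sequencing and the set of clones cannot be told apart. This holds for the mutants as well as for the controls.

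Per kilobase of exon, the order of Rgs12 and Rgs19 turned with the state. Rgs12 stood above Rgs19 in 7 of 7 ciliated clones, by a ratio of 1.36 (C-conD8) to 3.58 (C-conH12), and below it in 6 of 6 non-ciliated clones, at a ratio of 0.381 (NC-con1) to 0.903 (NC-con2). This ratio is taken within a clone, so scaling between libraries does not enter it, and it was chosen after its values were seen and was not tested. Before division by length, Rgs12 was above Rgs19 in every clone, with 50.2 against 42.7 CPM in NC-con1. The turn of the order thus depends on the merged exon lengths, 6590 and 2137 bases, which may differ from those of the RNA forms present. The shift of the ratio between the states does not depend on them.

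The remaining members showed no call between genotypes in the main tests. Rgs3 was highest in C-conH12 (34.7 to 43.5 CPM) and lowest in C-conG7 (7.18 to 9.96 CPM), both of them ciliated controls, and its log2 fold change was 0.17 in ciliated and 0.48 in non-ciliated mutants (adjusted p = 0.77 and 0.055). Rgs10, a small Gi regulator known from microglia and platelets, ran from 0.696 CPM in C-conD8 to 3.82 CPM in NC-Wdr60, with library ranges that overlapped between all neighbours in the order of clones. Rgs20, known from retina and brain, ran from 0.14 CPM in C-conG7 to 4.99 CPM in NC-conAB. Its log2 fold change was -0.51 in ciliated and 0.57 in non-ciliated mutants (edgeR adjusted p = 0.58 and 0.46). In C-Wdr34-3 it was -1.29 (SE 0.79, edgeR adjusted p = 0.27), and 1 of 12 alternatives called it. Its annotated exons overlap those of Atp6v1h on the opposite strand by up to 127 bases, and the strand setting of the counting is not given in the sources used here, so reads of the 2 genes cannot be told apart there. Rgs14, a scaffold best known from hippocampal neurons, had at most 4 counts in a library, a clone mean of at most 0.0907 CPM, and was not tested.

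Over the 7 ciliated clones and the 6 non-ciliated clones, the clone means of Rgs16 and Rgs20 had Pearson r = 0.90 and 0.83 on log2(CPM + 0.1), and those of Rgs16 and Rgs19 had r = 0.87 and 0.90. These pairs were chosen after their values were seen, from the 28 pairs of 8 members, because both values were high, and other pairs went the other way, such as Rgs10 with Rgs20 (r = -0.79 and -0.19) and Rgs10 with Rgs19 (r = -0.74 and -0.34). All 3 genes were lowest in C-conG7 among the ciliated and in NC-con2 among the non-ciliated clones, while the order of the other clones differed between the genes, and the values without these 2 clones were not computed. These values are descriptions across clones that share their libraries' scaling, and clones of both genotypes enter them. The gene with a pattern most like that of Rgs16 over the 13 clones was Smyd2 (r = 0.95), followed by Cyp20a1 (r = 0.94), which like Rgs16 are on chromosome 1, and Serpinb6a (r = 0.94). For Rgs19 they were Cct2, Dnajc2 and Eef1g (r = 0.99, 0.98 and 0.98), for Rgs20 Ctla2a, Gm13152 and Cst6 (r = 0.92 each), for Rgs2 Mnda, 2700069I18Rik and Ank2 (r = 0.91, 0.87 and 0.85), and for Rgs3 Trim68, Myzap and S100a14 (r = 0.93, 0.92 and 0.92). For Rgs10 they were Adam17, Ndufs4 and Ntan1 (r = 0.91, 0.90 and 0.90). Rgs9 was most like Dcn, Col11a1 and Casp4 (r = 0.96, 0.93 and 0.92), but in the 6 non-ciliated clones alone its r with Dcn was -0.02, and the 7 ciliated clones (r = 0.97) include C-Wdr34-3.

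**Figure D4:**
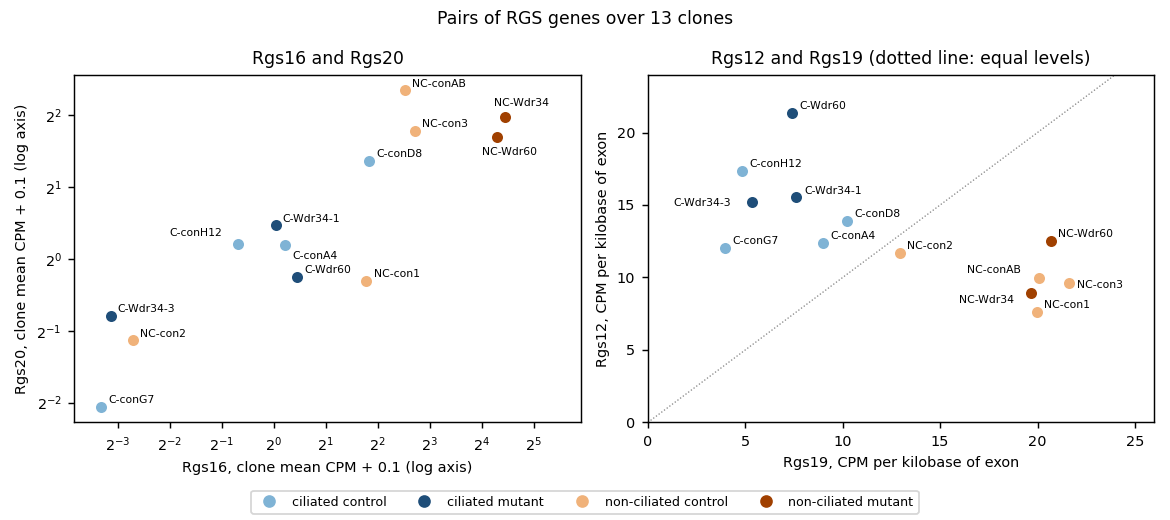
Clone means of Rgs16 and Rgs20 (left, CPM plus 0.1, both axes logarithmic) and of Rgs19 and Rgs12 (right, CPM per kilobase of exon, linear axes) for the 13 clones, coloured by state and genotype. On the right, the 7 ciliated clones lie above the dotted line of equal levels per kilobase and the 6 non-ciliated clones below it. The place of this line depends on the exon lengths used.

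The genes next to a member were compared with it. Of all genes tested, 3.06% were called in the non-ciliated mutants and 5.03% between the controls of the states. Within 1 Mb of the start of Rgs16, 7 tested genes had a median log2 fold change of -0.01 in the non-ciliated mutants, where Rgs16 had 2.40, and 0 of them were called. Within 1 Mb of Rgs2, 3 tested genes had a median of 0.17 in the same comparison, with 0 called. Around Rgs19, 23 tested genes had a median of 0.17 between ciliated and non-ciliated controls, against -1.43 for Rgs19 itself, with 0 called. Around Rgs9, 12 tested genes had a median of 0.35 in C-Wdr34-3, against 3.65 for Rgs9, and 3 were called, where 5.8% of all genes were. Between the ciliated and non-ciliated controls, by contrast, 11 tested genes around Rgs9 had a median of 1.08, close to the 1.18 of Rgs9, with 0 called.

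Other genes of the family and pathway were tested in the same fits, where 0.644% of all genes were called in the ciliated and 3.06% in the non-ciliated mutants. Of 19 further genes that encode RGS domains or partners of RGS proteins, 7 were tested in each state and 0 were called in either comparison of mutants with controls. Rgs1, Rgs7, Rgs13, Rgs18 and Rgs21 had no count in any library. None of 9 G alpha subunits tested in ciliated and of 10 in non-ciliated cells was called between mutants and controls, and none of the 9 and 8 G beta and gamma subunits, with all mutants of a state together. Among effectors, Adcy1, an adenylyl cyclase, was higher in the ciliated mutants by 1.82 (SE 0.47, adjusted p = 0.031, 1 of 10 tested), and Plcb1, the phospholipase C that Gq activates, was lower in the non-ciliated mutants with a value of -1.78 (SE 0.52, adjusted p = 0.024, 1 of 11 tested). Arrb1, which encodes beta-arrestin 1, had -1.26 (SE 0.38, adjusted p = 0.028) and the adenosine receptor gene Adora2b had 1.49 (SE 0.42, adjusted p = 0.017) in the non-ciliated mutants, 1 of 7 and 1 of 11 genes tested in their lists. With clones summed, the adjusted p of Adcy1 was 1.0 and that of the other 3 genes was 0.98. No gene of the 8 tested other G-protein regulators was called in ciliated cells and none of the 7 in non-ciliated cells. The medians of these lists lay between -0.14 and 0.11, against -0.01 and 0.00 for all genes tested in the ciliated and non-ciliated comparison.

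Between the ciliated and non-ciliated controls, Gnat2, a transducin alpha subunit, was at -2.17 on the log2 scale (SE 0.55, edgeR adjusted p = 0.038), Grk5, a receptor kinase, had -1.97 (SE 0.32, adjusted p = 0.012), and the adenosine receptor gene Adora1 had 1.43 (SE 0.36, adjusted p = 0.035), 1 gene each of 12 G alpha subunits, 7 receptor kinases and arrestins and 11 collecting duct receptors tested, beside 5.03% of all genes. No gene of the other 4 lists was called there.

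Single mutant clones gave further calls in these lists. In C-Wdr34-3, where 5.8% of all genes were called, Rgs11, like Rgs9 a partner of G beta 5, was at -2.15 on the log2 scale (SE 0.51, edgeR adjusted p = 0.0048) and Axin2, a scaffold of Wnt signaling with an RGS domain, at 1.46 (adjusted p = 0.015), 2 of 7 further RGS genes tested. In the same clone Gng3, a G gamma subunit, was at -1.11 (adjusted p = 0.026, 1 of 9), and the receptor genes Lpar1 and Adora1 were at 1.33 and -1.05 (adjusted p = 0.011 and 0.039, 2 of 11). Gng7, another G gamma subunit, was called lower in the Wdr60 mutant in both states, which may be 1 clone sampled in each, at -2.63 in C-Wdr60 (SE 0.66, adjusted p = 0.021, 1 of 9, beside 1.93% of all genes) and at -1.90 in NC-Wdr60 (SE 0.45, adjusted p = 0.0087, 1 of 9, beside 3.41% of all genes). Adora2b was at 2.28 in NC-Wdr60 (SE 0.37, 1 of 11). Rgs9bp, which encodes a membrane anchor of Rgs9 complexes, was at -1.40 in NC-Wdr34 (SE 0.39, adjusted p = 0.027, 1 of 7, beside 2.24% of all genes). C-Wdr34-1 had no call in these lists.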

How the data were processed

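RNA of 13 groups (a clone in 1 state) was sequenced in 52 libraries. The deposited values are raw counts per gene symbol, which the authors made with Rsubread and featureCounts on GRCm38/mm10, without normalization; strand and multi-mapping settings are not given in the sources used here. The submitters' processing notes also name R 3.4.4 and DESeq2 1.18.1.

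The tests used edgeR 4.0.16 in R 4.3.3 (filterByExpr, TMM, estimateDisp, glmQLFit, glmQLFTest, 2-sided), with limma 3.58.1 and DESeq2 1.42.0 as alternatives. Genes were called at a Benjamini-Hochberg adjusted p under 0.05 over all genes tested together with a change of 1 or more on the log2 scale. Libraries were the samples, except between states, where clones were summed. Libraries of a clone are technical replicates, so such p-values count them as independent samples although the clone is the independent unit. Where clones of a genotype were pooled, the spread used holds differences between clones as well as between libraries. The 78 pairs of libraries of a clone had a chi-square per degree of freedom of 1.99 to 104, and 0 pairs were identical. Clone means of log2(CPM + 0.1) were compared by exact 2-sided permutation over clones. CPM were TMM-scaled over all 52 libraries (12947 genes passed the filter), and gene positions came from RefSeq, to which 95% of symbols matched by symbol. Exon lengths and exon overlaps came from the GENCODE basic annotation of the mouse, whereas the authors counted on the iGenomes annotation. Standard errors are the size of the log2 fold change divided by the square root of F. Only some of the fits were tested on simulated data, among them those of all mutants of a state against its controls. The fit between states, the interaction, the fits on summed clones and voomLmFit were not.

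All 10 members were named. The genes most like a member (3 each) were named for members with a clone mean of at least 1 CPM and a range of at least 2 on the log2 scale, and pathway genes where called. The members and lists were chosen with earlier results of these data known. Alternatives were DESeq2, RLE scaling, a looser filter (1 count or more in any library), a stricter one (10 or more in every library), other thresholds, the replicate number as a block, summed clones, voomLmFit blocking on the clone, a pseudocount of 1 CPM, and each replicate number or clone left out.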

Additional observations from a re-analysis of the deposited data

Results flagged for a closer look

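Values that stood apart from the other 3 of their group by Dixon's test, which marks about 1 in 20 groups by chance, were found in 2 of 19 sets of 4 control clones and in 10 of 103 sets of 4 libraries. Among control clones, Rgs2 was high in NC-con3 (1.12 CPM, against 0.271 to 0.403 CPM in the other 3 non-ciliated controls), the clone whose libraries overlapped those of NC-Wdr34. Rgs17 in NC-conAB (0.0133 CPM) and Rgs16 in library 3 of C-Wdr34-3 (0.0541 CPM) are single counts. Among libraries, Rgs3 was low in library 1 of NC-Wdr60 (17.9 CPM), Rgs9 was high in library 2 of NC-Wdr34 (1.11 CPM) and library 1 of C-conH12 (1.06 CPM) and low in library 1 of C-Wdr34-3 (10.5 CPM). Rgs12 was low in library 4 of NC-Wdr34 (53.4 CPM), library 1 of NC-conAB (60.6 CPM) and library 3 of C-Wdr34-3 (94.3 CPM). Rgs20 was high in library 4 of NC-con3 (4.47 CPM) and low in library 2 of C-conA4 (0.195 CPM, 3 counts against 24 or 25 in the other 3 libraries).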

How the results depend on the processing

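Over all alternatives, 149 of 199 counts of called or separate members stayed within 1.5 times the main count, and of 318 fold changes of members with an unadjusted p under 0.05, 271 kept their direction and side of the thresholds. The 1 reversal was Rgs9 in ciliated mutants, whose log2 fold change ran from -0.42 (without C-Wdr34-3) to 2.77 when a clone or replicate number was left out. The libraries limit the members with few counts, Rgs2, Rgs9, Rgs10 and Rgs20. For every moved count below the cause was not tested, except that the filter of at least 10 counts removes members. In ciliated mutants against controls, 2 members were called, 0 at an adjusted p under 0.01, with at least 10 counts in every library, with clones summed or with the clone as a block in voomLmFit, 0 in each fit without a replicate number, and 0 to 2 without a clone (0 without C-Wdr34-3, C-conD8 or C-conA4, 1 without C-conH12). In non-ciliated mutants, 2 were called, 0 with at least 10 counts in every library, with clones summed or in voomLmFit, and 1 to 2 without a clone (1 without NC-Wdr60). Between states, 1 was called (Rgs19), 0 at an adjusted p under 0.01, 2 with libraries as samples (Rgs16 and Rgs19), and 0 to 1 without a clone (0 without NC-conAB, NC-con1, NC-con3, C-conH12 or C-conA4). In C-Wdr34-3, 3 members became 0 with at least 10 counts in every library, and 2 without a replicate number (Rgs2 and Rgs9). In C-Wdr60, 0 became 1 without the limit on size (Rgs12), and 0 to 1 without a clone (Rgs10 without C-conG7). In NC-Wdr34, 1 became 0 at an adjusted p under 0.01 or with at least 10 counts in every library, 0 in each fit without a replicate number, and 0 to 2 without a clone (0 without NC-con1, 2 without NC-con3). In NC-Wdr60, 2 became 1 at an adjusted p under 0.01 and with DESeq2, 0 with at least 10 counts in every library, 1 in each fit without a replicate number, and 1 to 2 without a clone (1 without NC-con1). Among non-ciliated controls, 5 became 3 without NC-con2 or NC-con3. Members with separate clone means numbered 0 in ciliated cells, 1 with at least 1 count in any library (Rgs17) and 0 to 1 without a clone (Rgs12 without C-conH12), and 2 in non-ciliated cells, 2 to 5 without a clone (5 without NC-Wdr34).

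Replicate numbers did not pair libraries (mean correlation of deviations 0.027 in ciliated and -0.00456 in non-ciliated cells), and 8 of 28 and 8 of 24 libraries were closest to their own number. With the replicate number as a block, 1 member was called in ciliated mutants (Rgs9), 0 in NC-Wdr34 and 1 in NC-Wdr60 (Rgs2), and the block changed no other count by over 1.5 times.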
